A study of Mus musculus with 6 samples.

Results

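The genes described are 10 hormone and hormone receptor genes of the pituitary cells that do not make growth hormone. They are Prl, Pomc, Cga, Lhb, Fshb and Tshb, which encode hormones or their subunits, and Gnrhr, Trhr, Crhr1 and Drd2, which encode receptors for signals from the hypothalamus. They were taken by the gene name printed in the array files, with every probe of each gene, which gave 13 probes out of 39429 and 10 genes out of 30119. They were selected on their levels by genotype and day on these same arrays, so their values are given as a description and no p-value is attached to them.

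RNA came from anterior pituitaries of female mice, from cells that pump out a Hoechst dye (the side population) and lack high Sca1, a gate in which the submitters place the stem cells. All mice carried the toxin receptor transgene iDTR and were given diphtheria toxin (4 ng/g, repeated daily). Mice labelled GHCre/iDTR also carried a Cre recombinase under growth hormone control, so that growth hormone cells become sensitive to the toxin, and control mice (-/iDTR) lacked it. Arrays were made from 2 control and 2 GHCre samples after 3 days of toxin, and from 1 control and 1 GHCre sample after 10 days. The series text calls the 2 samples independent, but no age or number of animals per sample is given, so the spread between replicates may be partly technical. Each sample was amplified from a small amount of RNA.

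In the anterior pituitary, lactotropes secrete prolactin, corticotropes cleave corticotropin from the POMC precursor, gonadotropes secrete LH and FSH, and thyrotropes secrete TSH. LH, FSH and TSH share the alpha subunit made from Cga and differ in their beta subunits, made from Lhb, Fshb and Tshb. The hypothalamus drives these cells through receptors for GnRH on gonadotropes, TRH on thyrotropes and lactotropes, and CRH on corticotropes, whereas dopamine holds prolactin back through the D2 receptor made from Drd2.

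The arrays lay on 3 slides. Slide 1 held replicate 1 of both 3 day groups, slide 2 held the 10 day control alone, and slide 3 held replicate 2 of both 3 day groups together with the 10 day GHCre array. The share of probes well above background ran from 53.8% to 65.7%, and no probe was saturated. Replicate 1 of the 3 day controls stood apart, with the share of 53.8% and a 75th percentile signal of 186. The other arrays had shares of 61.4% or more and 75th percentile signals of 251 to 299. The free-text descriptions of 3 samples disagree with their titles, namely both 10 day arrays and replicate 2 of the 3 day controls. Both 10 day arrays are described there as 3 day samples, and the one titled as GHCre is called an uninjured control. Every 10 day value rests on these titles, and the groups follow the titles, which match the genotype and treatment fields. Of 8 stem cell markers, Sox2 and Hesx1 were not above background on any array, and 4 or 5 of the 8 were above it on each array. Levels are on the log2 scale, with the 75th percentile of each array set to 0. Differences are log2 values, given with the standard error (SE) of a limma fit of all genes where the gene could be fitted. The SE of a 3 day difference includes the gap between slides 1 and 3. In a sorted bulk sample, fewer cells of a type and less RNA per cell cannot be told apart.

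The array measures each transcript through a probe of 60 bases. The 3 probes below, as printed in the array files, are shown because each lies in, or at the end of, the protein-coding sequence of a gene whose level differed by over 2 log2 units between arrays.
Pomc: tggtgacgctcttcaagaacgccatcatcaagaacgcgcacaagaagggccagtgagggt
Lhb: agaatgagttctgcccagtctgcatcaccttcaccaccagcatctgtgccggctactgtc
Drd2: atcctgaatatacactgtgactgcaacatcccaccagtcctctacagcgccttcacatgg
In the mm9 annotation of the files, the Pomc probe lies at chr12:3960413-3960472 and the Lhb probe at chr7:52676685-52676744, both on the plus strand. The Drd2 probe lies at chr9:49215047-49215106 on the plus strand.

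The 250 bases before the transcription start are shown for the 5 hormone genes above background, from the RefSeq promoter table of build GRCm38.p6, where 9 of the 10 genes had an entry. Capitals mark every match, on either strand, to 5 motifs. TATAAA is the core of the TATA box. TGACCTTG is a site of SF-1, the gonadotrope factor made from Nr5a1. ATGNATA is a site of Pit-1, made from Pou1f1. TAATCC is a site of the Pitx factors. AGATAA is a site of the GATA factors.
Prl: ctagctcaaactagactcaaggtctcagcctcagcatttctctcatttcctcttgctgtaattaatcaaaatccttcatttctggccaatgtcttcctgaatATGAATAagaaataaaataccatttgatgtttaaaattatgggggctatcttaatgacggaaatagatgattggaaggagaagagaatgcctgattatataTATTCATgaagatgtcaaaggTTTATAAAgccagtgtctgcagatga
Pomc: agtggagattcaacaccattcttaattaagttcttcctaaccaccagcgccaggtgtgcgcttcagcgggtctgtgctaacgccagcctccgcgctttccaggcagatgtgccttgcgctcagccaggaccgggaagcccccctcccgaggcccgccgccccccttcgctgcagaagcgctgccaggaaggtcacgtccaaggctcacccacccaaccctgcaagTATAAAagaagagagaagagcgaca
Cga: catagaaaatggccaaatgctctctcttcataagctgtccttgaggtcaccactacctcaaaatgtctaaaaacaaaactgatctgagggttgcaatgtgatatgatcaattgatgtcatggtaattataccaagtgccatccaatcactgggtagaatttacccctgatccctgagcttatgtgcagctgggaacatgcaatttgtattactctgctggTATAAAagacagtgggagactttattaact
Lhb: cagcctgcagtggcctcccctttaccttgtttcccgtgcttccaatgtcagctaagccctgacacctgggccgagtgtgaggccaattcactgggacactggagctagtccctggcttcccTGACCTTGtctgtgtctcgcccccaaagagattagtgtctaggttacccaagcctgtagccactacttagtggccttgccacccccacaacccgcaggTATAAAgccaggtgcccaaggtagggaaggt
Tshb: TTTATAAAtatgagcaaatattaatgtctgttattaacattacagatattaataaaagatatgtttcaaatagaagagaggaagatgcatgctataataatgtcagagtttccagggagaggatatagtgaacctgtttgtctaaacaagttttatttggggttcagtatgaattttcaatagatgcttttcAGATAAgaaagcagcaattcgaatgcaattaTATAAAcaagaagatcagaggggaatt
These windows are chr13:27057320-27057569 (plus strand) for Prl, chr12:3954695-3954944 (plus) for Pomc, chr4:34893529-34893778 (plus) for Cga, chr7:45420696-45420945 (plus) for Lhb and chr3:102782715-102782964 (minus) for Tshb. All 6 hormone genes, Fshb included, held TATAAA in the window, against 1 of the 3 receptor genes with an entry and 12.4% of 32851 promoters. TTTATAAA in Prl and Tshb holds overlapping matches on the 2 strands. The SF-1 letters stood only in Lhb among these promoters, and in 1.33% of all. The Pit-1 letters stood only in Prl, at 2 places, and in 7.92% of all, and the GATA letters only in Tshb and in 9.99% of all. The Pitx letters, in 6.25% of all promoters, matched none of the 9 promoters in this window. A match is a description of letters and not a measured binding site.

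Of the 10 genes, 7 had a probe well above background on all 6 arrays, namely Prl, Pomc, Cga, Lhb, Tshb, Crhr1 and Drd2. Gnrhr was above it on 2 arrays. Fshb and Trhr were not above it on any array. The filter for testing asked for 2 arrays above background, and it kept 8 of the 10 genes and 20924 of all 30119.

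**Figure D1:**
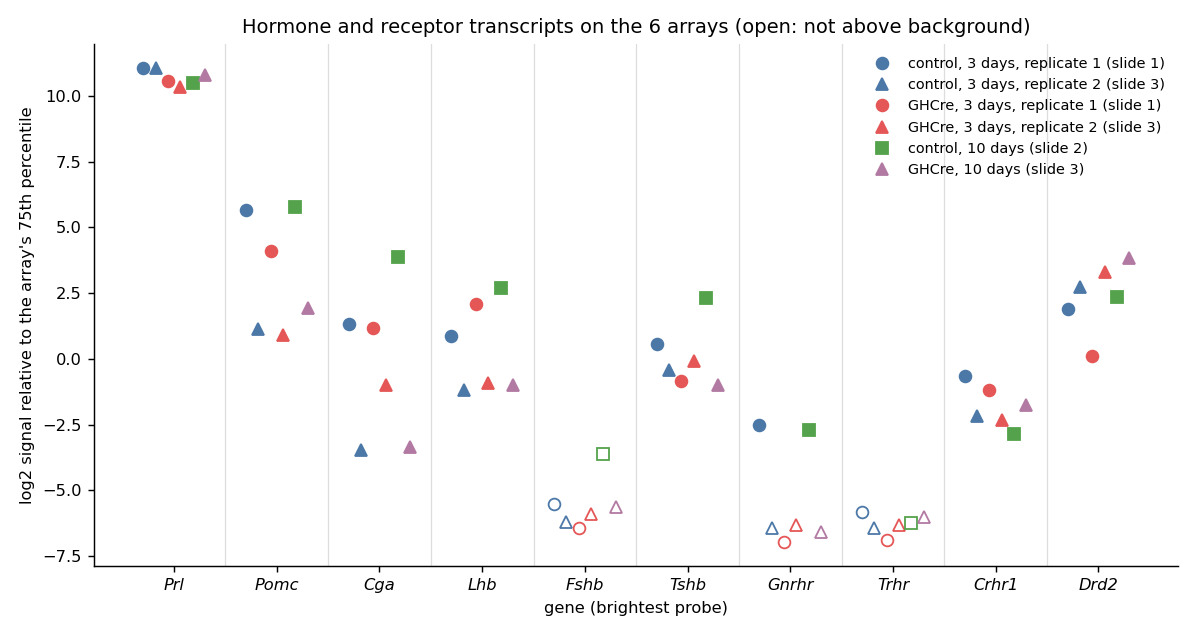
Level of each hormone and receptor gene (x axis, brightest probe) as log2 signal above or below the 75th percentile (y axis), 1 point per array, with colour for the group, shape for the slide and open points for signals not above background. The 3 arrays of slide 3 (triangles) sit below the other 3 for Pomc, Cga and Lhb and above them for Drd2, while Prl lies between 10.35 and 11.08 on every array.

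Prl, the prolactin gene, gave the brightest signal of all probes on each of the 6 arrays. Its level was 11.08 and 11.06 in the 3 day controls, 10.59 and 10.35 in the 3 day GHCre arrays, 10.49 in the 10 day control and 10.82 in the 10 day GHCre array. The 3 day GHCre arrays were below both controls of that day and the 10 day GHCre array was above its control, all within 0.73. Prl was the only 1 of the 8 tested genes whose 3 day groups did not overlap, with a difference of -0.60 ± 0.40 (SE). Over all genes tested, 21.3% had both GHCre arrays of 3 days below both controls and 16.7% had them above. Its probe is at chr13:27156972-27157031 of mm9.

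Pomc, the precursor of corticotropin, varied far more. It was at 5.65 and 1.12 in the 3 day controls and at 4.09 and 0.90 in the 3 day GHCre arrays, and the 10 day arrays gave 5.79 for the control and 1.93 for GHCre. Thus 3 arrays were high, at 4.09 to 5.79, and the 3 arrays of slide 3 were low, at 0.90 to 1.93. Replicate 1 exceeded replicate 2 by 4.52 in the controls and by 3.19 in GHCre mice. The genotypes overlapped after 3 days, with a difference of -0.89 ± 1.99 that was -1.56 within slide 1 and -0.22 within slide 3. Leaving out 1 array at a time, which leaves the slides unbalanced between the genotypes, moved the 3 day difference between -3.15 and 1.37. Pomc is also the main product of melanotropes of the intermediate lobe, which was removed with the posterior lobe. Of 4 melanotrope markers, Pax7 was not above background on any of the arrays. The other 3, namely Pomc itself, Pcsk2 and Oacyl, were above it on all 6, with a summed level of 7.11 to 7.98. That sum thus includes Pomc, and since Pcsk2 lay between -1.86 and 0.23, it rests mostly on Oacyl. The part of melanotropes in the Pomc level was not tested.

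Cga, the common alpha subunit, spanned 7.35 log2 units. It was at 1.34 and -3.47 in the 3 day controls and at 1.16 and -1.0 in the 3 day GHCre arrays. The 10 day control gave 3.88, the highest value, and the 10 day GHCre array gave -3.35. The 3 low arrays were again those of slide 3. The 3 day difference was 1.15 ± 1.90, with -0.18 within slide 1 and 2.47 within slide 3, and ran from -1.26 to 3.55 when 1 array was left out. The probe is at chr4:34854544-34854603. A further Cga probe, at chr4:34842664-34842723 and designed on an Ensembl transcript, was above background on 2 arrays only and lay between -4.99 and -3.48 without following the first.

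Lhb, the beta subunit of LH, repeated the order of slides at a smaller range. It was at 0.86 and -1.20 in the 3 day controls, 2.08 and -0.90 in the 3 day GHCre arrays, 2.72 in the 10 day control and -0.98 in the 10 day GHCre array. The 3 arrays of slide 3 lay within -1.20 to -0.90, whatever their genotype and day. The 3 day difference was 0.76 ± 1.34, at 1.22 within slide 1 and 0.30 within slide 3, and reached -0.73 when replicate 1 of the GHCre group was left out. Fshb, the beta subunit of FSH, lay between -6.45 and -3.62 and was not above background on any array (chr2:106896400-106896459). Its highest signal was on the 10 day control.

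Tshb, the beta subunit of TSH, did not follow the slides. It was at 0.58 and -0.44 in the 3 day controls, -0.84 and -0.07 in the 3 day GHCre arrays, 2.30 in the 10 day control and -0.98 in the 10 day GHCre array. The 10 day control stood apart and the other 5 arrays lay between -0.98 and 0.58. The 3 day difference was -0.52 ± 0.60, at -1.42 within slide 1 and 0.37 within slide 3.

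Among the receptors, Drd2, through which dopamine inhibits lactotropes, ran opposite to Pomc, Cga and Lhb across the slides. It was at 1.88 and 2.74 in the 3 day controls, 0.10 and 3.31 in the 3 day GHCre arrays, 2.35 in the 10 day control and 3.83 in the 10 day GHCre array. The 3 arrays of slide 3 lay above the other 3. The genotypes overlapped after 3 days, at -0.61 ± 1.24 with -1.79 within slide 1 and 0.57 within slide 3.

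Crhr1, the CRH receptor of corticotropes, was at -0.66 and -2.17 in the 3 day controls, -1.17 and -2.33 in the 3 day GHCre arrays, -2.87 in the 10 day control and -1.77 in the 10 day GHCre array. Its lowest level was thus on the array with the highest Pomc level. The groups overlapped after 3 days, with a difference of -0.34 ± 0.78, at -0.52 within slide 1 and -0.16 within slide 3. The mean of its probes gave -1.32. This probe is at chr11:104036691-104036750. A further probe at chr11:104036182-104036241 was above background only on replicate 1 of the 3 day controls, at -2.18.

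Gnrhr, the GnRH receptor of gonadotropes, was above background only on replicate 1 of the 3 day controls, at -2.51, and on the 10 day control, at -2.69. The other control was at -6.44 and the 3 GHCre arrays at -6.97, -6.34 and -6.59, none above background. So the control that lacked a Gnrhr signal was the one on slide 3, and no GHCre array had one. The probe is at chr5:86611152-86611211, and a further Gnrhr probe at chr5:86613585-86613644 was not above background anywhere. Trhr, the TRH receptor, stayed between -6.89 and -5.82, not above background on any array (chr15:44067399-44067458).

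After 10 days, with 1 array in each group, 5 of the 8 tested genes were lower in the GHCre array by 8-fold or more and none of the rest by 2-fold. Over all genes tested, 2.04% were lower by 8-fold or more, 1.27% were higher by as much, and 14.0% were lower by 2-fold or more. The members were selected on this contrast among others, so nothing is read from the count. The count takes Gnrhr at its measured signal. With normexp background correction Tshb (-2.76) and Gnrhr (-0.70) fell short of 8-fold, and so did Gnrhr (-2.11) with the mean of its probes. Cga was 149.7-fold lower on its brightest probe, a difference of -7.23 ± 2.68. Its further probe, not above background in the control, differed by 0.34, and the mean of the probes gave -3.44. Pomc was 14.5-fold lower (-3.86 ± 2.81), Lhb 13.0-fold lower (-3.70 ± 1.89) and Tshb 9.74-fold lower (-3.28 ± 0.84). These SE values borrow their spread from the 3 day arrays, since neither 10 day group has a replicate.

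Of the remaining tested genes, Gnrhr was also lower at that time, and Crhr1, Drd2 and Prl were higher. For Gnrhr, not above background in GHCre mice, the control was at least 2.98-fold higher on the brightest probe. This bound takes the GHCre array at its lowest signal well above background, and it does not hold under every setting. With normexp background correction the Gnrhr difference was -0.70, under 2-fold. The further Gnrhr probe, not above background on any array, differed by -0.33. Crhr1 was 2.13-fold higher (1.09 ± 1.10), Drd2 2.78-fold higher (1.48 ± 1.75) and Prl 1.25-fold higher (0.32 ± 0.57). The Crhr1 difference was 0.38 with the mean of its probes and 0.51 with normexp background correction, both under 2-fold. Differences of 2-fold or more in this direction were found for 12.7% of all genes tested.

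**Figure D2:**
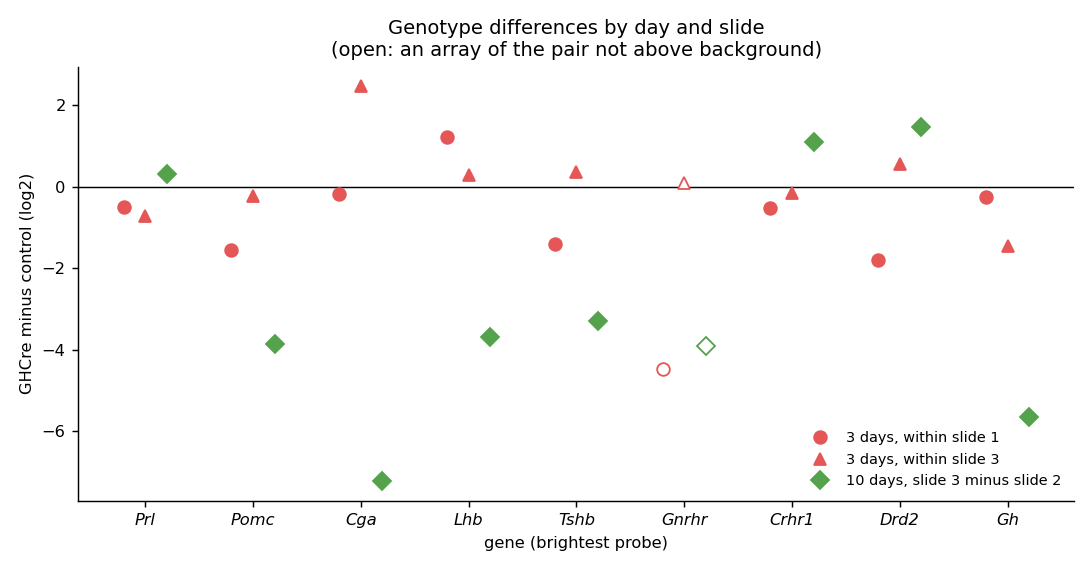
GHCre minus control (y axis, log2) for the 8 genes above background on 2 or more arrays and for Gh, within slide 1 and within slide 3 after 3 days and between the lone arrays after 10 days, which lie on slides 2 and 3. Open points mark pairs with an array not above background, and the 10 day values of Pomc, Cga, Lhb, Tshb and Gh lie below both 3 day values.

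The 2 arrays of 10 days lay on different slides, so genotype and slide cannot be told apart in this contrast. The slides were therefore described directly, a step chosen after the values had been seen. The members were also selected on their levels on these arrays, so nothing is read from their counts by slide. All 3 arrays of slide 3 were below all arrays of slides 1 and 2 for Pomc, Cga and Lhb, 3 of the 8 tested genes, where 5.08% of all genes tested showed this order. The gap between the nearest arrays was 2.16 for Pomc, 2.16 for Cga and 1.76 for Lhb. A gap over 1 occurred in 0.378% of all genes tested, that is in 79 genes. Drd2 was the single member with slide 3 above the others, by 0.39, an order seen in 8.45% of all genes tested.

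Within the 3 day groups, where each genotype has an array on slide 1 and on slide 3, the gap between replicates can be given for each genotype. Replicate 1 was above replicate 2 by 2-fold or more in both for Pomc, Cga, Lhb and Crhr1, 4 of the 8 genes against 3.68% of all genes tested. For Pomc, Cga and Lhb this order follows from the slide gaps given above and is not a further observation. Nothing is read from this count either. For Cga the gaps were 4.81 in controls and 2.16 in GHCre mice, for Lhb 2.06 and 2.98, and for Crhr1 1.51 and 1.16. Drd2 had gaps of -0.86 and -3.22, and Prl of 0.03 and 0.25. For Tshb the gaps were 1.02 and -0.77, opposite in the 2 genotypes.

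**Figure D3:**
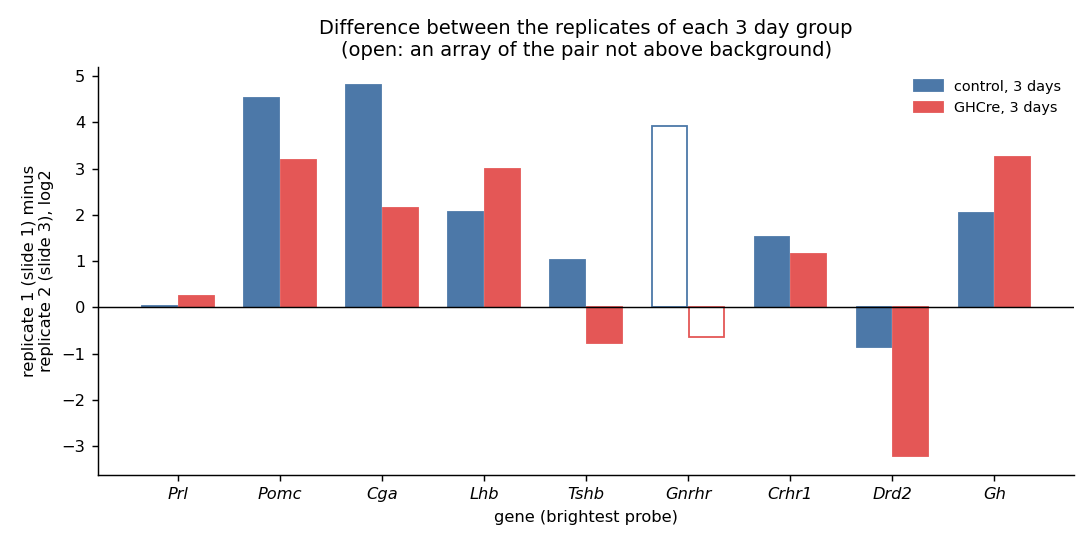
Replicate 1 (slide 1) minus replicate 2 (slide 3) of each 3 day group (y axis, log2) for the 8 genes above background on 2 or more arrays and for Gh. Filled bars are pairs with both arrays above background and open bars are not, and Pomc, Cga, Lhb, Crhr1 and Gh are positive in both genotypes while Drd2 is negative in both.

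Growth hormone itself shared the pattern. Gh was at 5.69 and 3.65 in the 3 day controls, 5.46 and 2.20 in the 3 day GHCre arrays, 7.86 in the 10 day control and 2.21 in the 10 day GHCre array. The arrays of slide 3 were the 3 lowest, with a gap of 1.81. Ghrhr, which encodes the GHRH receptor of somatotropes, was above background on replicate 1 of the 3 day GHCre group, at -2.30, and on the 10 day control, at 0.01.

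Other quantities moved with the slides as well. The summed level of the 8 stem cell markers was 4.12, 3.80 and 3.79 on slides 1 and 2 and 3.23, 3.1 and 3.34 on slide 3. Only 4 or 5 of the 8 were above background on each array. Their mean log2 levels were -2.26 to -2.01 against -2.86 to -2.61, so the sum rests mostly on the brightest of them. The 4 mural cell markers also separated, at 4.79 to 5.31 on slides 1 and 2 against 4.38 to 4.72 on slide 3, but only in this sum, since their mean log2 levels overlapped. For the 4 folliculostellate markers the sums overlapped, at 2.09 to 3.13 against 0.33 to 2.43, and so did those of the 6 myeloid markers, at 4.35 to 4.97 against 4.36 to 4.86. The 6 endothelial markers overlapped at 2.23 to 2.75 against 2.14 to 2.51, and the 5 fibroblast markers at 7.09 to 7.78 against 6.81 to 7.54. Sums of the melanotrope, lymphocyte, erythroid and pituicyte markers and the share of probes above background overlapped too. The part of any of these in the hormone levels was not tested.

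Set against the 3 day arrays of its own genotype, the 10 day control was above both controls for Pomc, Cga, Lhb and Tshb, 4 of the 8 genes, where 32.3% of all genes tested had this order. The control differences of 10 minus 3 days were 4.95 ± 2.32 for Cga, 2.89 ± 1.64 for Lhb, 2.40 ± 2.44 for Pomc and 2.23 ± 0.73 for Tshb. Without replicate 2 of the 3 day controls the Pomc value was 0.14, and without replicate 1 it was 4.67. No 3 day control shares the slide of the 10 day control. Over all genes tested with limma, 4.06% had an unadjusted p under 0.05 for this difference between days.

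The 10 day GHCre array shares slide 3 with replicate 2 of the 3 day GHCre group, which allows a comparison within 1 slide. There Lhb differed by -0.08 between days, Tshb by -0.92, Prl by 0.47, Drd2 by 0.52, Crhr1 by 0.56 and Pomc by 1.03. Cga differed most, by -2.35, and Gh by 0.01. Against the mean of both 3 day arrays the values were -1.57 ± 1.64 for Lhb, -3.43 ± 2.32 for Cga, -0.57 ± 2.44 for Pomc and 2.13 ± 1.52 for Drd2. The 10 day array was below both 3 day GHCre arrays for Cga, Lhb and Tshb, against 28.1% of all genes tested, and 4.02% of all genes had an unadjusted p under 0.05 in the limma fit of these days. The comparisons of days and of genotypes share arrays, so their values are not independent of each other. As the members were selected on these arrays, nothing is read from their counts by day.

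The genes whose levels ran most like each member over the 6 arrays were found by the mean absolute difference after each gene's own mean was subtracted. Over 16323 named genes the nearest to Pomc were Spc25 (0.45), Gm4123 (0.49) and Lama5 (0.55), where the median gene stood at 1.98. These 3 genes were above background on 3 of the 6 arrays, so their likeness rests in part on background signal. Gh was the nearest to Pomc among the hormone genes, at 0.74 and rank 11, and also to Cga, at 1.06 and rank 5. For Cga the closest were Zbtb24 (0.77), Pcdh7 (0.80) and Mst1r (0.88), and for Lhb they were Rptoros (0.34), Zfp185 (0.34) and Ublcp1 (0.37). Zbtb24 was above background on 4 arrays, Pcdh7 and Mst1r on 3, Rptoros and Zfp185 on 2 and Ublcp1 on 6. Tshb ran closest to Gm9732 (0.28), Mlst8 (0.30) and Ppp1r1c (0.30), and Drd2 to Acot11 (0.20), Mreg (0.21) and Tspyl5 (0.24). Of these, Mlst8, Mreg and Tspyl5 were above background on 6 arrays, Gm9732 and Acot11 on 4 and Ppp1r1c on 3. The nearest to Gnrhr were 8430431K14Rik (0.06), Ccdc62 (0.27) and Gm10791 (0.28), each above background on 2 arrays. Gnrhr itself was above background on only 2 arrays, so these small distances rest in large part on background signal. Across 6 arrays such nearness is a description, and the arrays share slides, groups and amplification.

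The other genes of these hormone axes were taken from 7 lists with 115 entries, 94 of which were tested with limma over all genes. After 3 days 0 of them passed an adjusted p of 0.05, as did 0 of the 20924 genes (0.0%, lowest adjusted p = 0.653), and 6 list genes, all lower in GHCre mice, had an unadjusted p under 0.05. Over all genes the share was 6.58% in both directions together, with 826 genes higher and 550 lower. After 10 days 0 list genes passed, with 3.02% of all genes at an unadjusted p under 0.05. The difference of the 2 effects gave 0 list genes as well, with 3.94% of all genes at that level.

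Receptors of hypothalamic and peripheral hormones had 7 of 19 members above and 12 below the controls after 3 days, with a median of -0.22 beside -0.04 for all genes tested. The progesterone receptor Pgr had the lowest p of the list. Controls gave 0.02 and -0.91, and GHCre arrays -3.62 and -3.97, the latter not above background, a difference of -3.35 ± 0.53 (limma adjusted p = 0.653). Its other probes differed by -3.08 and -2.09. Pgr stood at -2.47 in the 10 day control and at -1.40 in the 10 day GHCre array, a difference of 1.08, and its other probes differed by 2.96 and 3.48. Thra, a thyroid hormone receptor, differed by -1.54 ± 0.64 after 3 days on its brightest probe and by -0.02 on the other.

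A pair of other corticotrope genes had signals only in the 3 day controls. Tbx19, the factor that switches on Pomc in corticotropes, was at -1.28 and -3.71 in the 3 day controls and not above background in the GHCre arrays, at least 3.57-fold lower (-3.38 ± 0.95, limma adjusted p = 0.717). Avpr1b, the vasopressin receptor of corticotropes, gave -0.53 and -3.87 in those controls and was also not above background in GHCre mice, at least 4.39-fold lower (-2.82 ± 1.28, limma adjusted p = 0.813). Both bounds compare group means and rest mostly on replicate 1 of the controls. On slide 3, control replicate 2 was close to the lowest signal well above background of the 3 day GHCre array, -4.02. Neither gene was above background on either 10 day array, including the control array on which Pomc was highest. All 4 corticotrope markers were above background on both 3 day controls, and 2 of the 4 on each of the other arrays.

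Transcription factors of the hormone lineages had 5 of 16 members above and 11 below the controls after 3 days (median -0.20). Pou1f1, the factor of the lactotrope, somatotrope and thyrotrope lineage, was at 3.07 and 4.75 in the 3 day controls, 2.03 and 3.66 in the 3 day GHCre arrays, 2.27 in the 10 day control and 4.01 in the 10 day GHCre array. The 3 arrays of slide 3 were thus the 3 highest for Pou1f1, and so they were for Lhx3, Nr4a1 and Nr4a2, an order seen in 8.45% of all genes tested. Gata2, a factor of gonadotropes and thyrotropes, had the opposite order.

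The activin, inhibin and follistatin system tunes Fshb in gonadotropes. After 3 days 10 of its 12 members were above the controls, with a median of 0.62 beside -0.04 for all genes tested. The receptor Acvr1c went the other way, with levels of -0.52 and -1.56 in the 3 day controls against -4.82, not above background, and -3.31 with GHCre (-3.02 ± 0.76, limma adjusted p = 0.699). Its other probe differed by -5.08. The 2 probes of Acvr1b disagreed, at -3.08 and 0.49. After 10 days 9 of the 12 were below the control, with a median of -0.41 beside -0.001 for all genes tested. That comparison has 1 array in each group, on different slides.

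Genes of prohormone processing and secretory granules had group means below the controls in 16 of 16 cases after 3 days. Their median was -0.63, beside -0.04 for all genes tested. After 10 days 8 of 16 were below the control (median 0.04). The 3 day count is of means, and single arrays can differ from it. For Rab3b the GHCre arrays gave -4.17 and -1.72 and the controls -2.65 and -2.77. Vgf, a granule protein, differed by -1.30 ± 0.43 after 3 days (limma adjusted p = 0.752). Chga and Scg3, also granule proteins, had their 3 highest levels on slide 3. They were 2 of the 16 genes, where 8.45% of all genes tested had this order. G protein signalling genes had medians of -0.12 after 3 days and -0.09 after 10 days. Among them Prkca, a protein kinase C, had the 10 day control at least 42.5-fold above the GHCre array on its brightest probe, and a difference of -2.35 on the other.

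Other peptide hormone genes had 6 of 11 members above the controls after 3 days (median 0.17). Penk, the enkephalin precursor, gave 1.22 and -1.04 in the 3 day controls against 2.44 and 2.34 with GHCre (2.30 ± 0.89, limma adjusted p = 0.768), with 0.27 and 1.74 after 10 days. Adcyap1, which encodes the peptide PACAP, differed by -1.57 ± 0.51 after 3 days (limma adjusted p = 0.744). Oxt, the oxytocin gene, gave -3.0 and -0.44 in the 10 day control and GHCre arrays. Of the 4 somatotrope genes tested, 1 was above and 3 were below the controls after 3 days (median -0.92). Igf1r, the IGF1 receptor, differed by -1.13 ± 0.41 (limma adjusted p = 0.759).

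**Figure D4:**
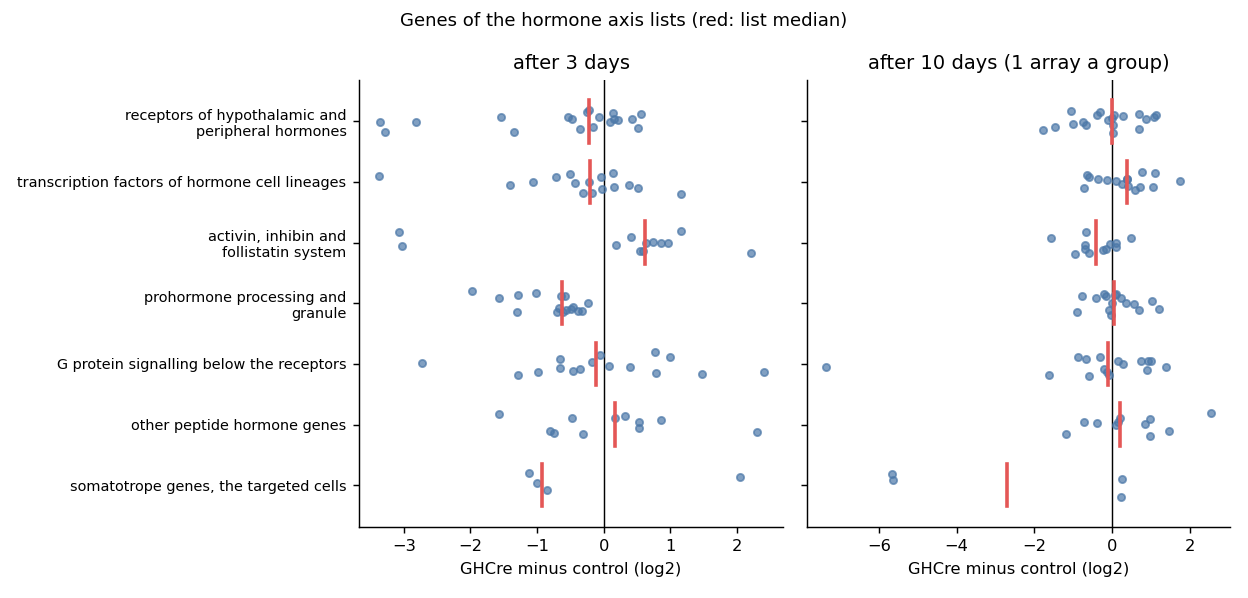
GHCre minus control (x axis, log2) for each tested gene of the 7 lists of the hormone axes (rows), after 3 days on the left and after 10 days on the right, with each point a gene and the red line the list median. As differences of group means, the 16 granule genes all lie below 0 after 3 days, and they split into 8 and 8 after 10 days.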

How the data were processed

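The 6 samples were hybridised to Agilent 1-colour arrays. Per the file headers, the authors ran Feature Extraction 10.7.3.1 (Agilent), which subtracted background and removed spatial trends from each intensity, array by array. A series table deposited beside them gives log2 values for 38017 probes, which correlated at 0.99990 or more with quantile normalized scanner values on every array.

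Replicate spots were averaged on the log2 scale without outlier spots, each array was scaled to its 75th percentile, and probes were named by RefSeq accession or symbol. Each gene was represented by its brightest probe and tested when well above background on 2 of 6 arrays. limma 3.58.1 in R 4.3.3 fitted a mean for each of 4 groups with 2 residual degrees of freedom, all from the 3 day arrays, and Benjamini-Hochberg adjustment. The fit was tested on simulated data. The members and gene lists were chosen with earlier results of these data known. List genes named are the 3 of lowest p after 3 days and the 3 of largest difference after 10 days in each list, of which a part is printed, and other genes named with the slides were chosen after their values were seen. Alternatives were quantile normalization, normexp with an offset of 50, the series table, other filters, the mean of probes, replicate and slide blocks, and leaving out each 3 day array. The number of arrays limits the precision. Figures used matplotlib 3.10.9 in Python 3.11.15. A few genes and a probe sequence are not reported here.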

Additional observations from a re-analysis of the deposited data

Results flagged for a closer look

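Prl moved in opposite directions at the 2 times, with both GHCre arrays of 3 days below both controls and the GHCre array of 10 days above its control. The effect after 10 days minus that after 3 days was 0.92 ± 0.70 (SE). No p-value is attached to it, since Prl was selected on these arrays. With quantile normalization it is 0.00 at both times by construction, since Prl holds the highest signal on every array.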

How the results depend on the processing

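With the slide as a block, 3 of the 8 tested members were lower after 10 days in GHCre mice, against 5 without it. The 10 day genotype difference could not be fitted with that block, since slide 2 holds that control and nothing else. With each 3 day array left out in turn, members lower in GHCre after 3 days numbered 4 to 8 (6 with all arrays), those lower after 10 days in GHCre mice 4 to 5, and those higher after 10 days in controls 5 to 6. After 10 days 5 members were lower, by any amount, under quantile normalization, normexp, the series table and the mean of probes. Not all of them stayed 8-fold lower, since Tshb (-2.76) and Gnrhr fell short with normexp and Gnrhr (-2.11) with the mean of probes. Leaving out a 3 day array or blocking by replicate cannot alter a difference between lone arrays. The 3 day difference changed sign with an array left out for Pomc, Cga, Lhb, Crhr1 and Drd2, and under no other alternative, except that Prl was set to 0.00 by quantile normalization and in the series table. The 10 day Cga difference was -3.44 with the mean of its probes, and that of Gnrhr -0.70 with normexp. The limma fit called 0 genes, and 0 list genes, under every alternative. Unadjusted p under 0.05 held for 1376 genes after 3 days, 784 when GHCre replicate 1 was left out and 2284 when control replicate 2 was. For the 10 day difference it held for 631, 959 with either 3 day control left out and 1171 with no filter, and for the difference of the effects 824, 1322 with no filter, 1281 without replicate 1 and 1455 without replicate 2 of the controls. With the replicate number as a block the 3 counts were 1456, 824 and 1027. Same-numbered arrays of 3 days deviated together at a correlation of 0.087 across all genes, and at 3 days the number is also the slide. Each array left out unbalances the slides. Within slides the 3 day differences of Prl, Pomc, Lhb and Crhr1 kept their sign while those of Cga, Tshb, Gnrhr and Drd2 did not. For Tshb they were -1.42 in slide 1 and 0.37 in slide 3, and for Gnrhr, mostly not above background, -4.47 and 0.10.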
